A study of Mus musculus with 25 samples.

Results

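The genes described here are 10 mouse genes with which phagocytes bind, engulf and take up lipid from dead cells: the bridging ligands Gas6, Pros1 and Mfge8, the receptor tyrosine kinases Mertk, Axl and Tyro3, and the scavenger receptors Cd36, Msr1, Stab1 and Scarb1. They were taken by symbol from a table of 24984 genes, and all 10 were found in it. Efferocytosis is the clearance of apoptotic cells. A dying cell exposes phosphatidylserine on its surface, and soluble bridging proteins tie that lipid to receptors on the phagocyte. Gas6 binds the TAM receptors Tyro3, Axl and Mertk, Pros1 (protein S) binds Tyro3 and Mertk, and Mfge8 binds the alpha-v integrins. Scavenger receptors bind modified lipoproteins, phospholipids and cell debris, and in the liver several of them are known from Kupffer cells and from the endothelium of the sinusoids.

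RNA was sequenced from BMEL cells, a bipotential line derived from mouse embryonic liver, in culture and after growth as tumours in athymic nude mice. The cultured groups, with 3 libraries each, were BMEL WT cells carrying an empty vector, and RasLOW and RasHIGH cells, populations carrying the human H-Ras G12V oncogene that were sorted by the brightness of a co-expressed fluorescent protein, so that their oncogene levels overlap. The tumours grew at the injection site in the liver and in the peritoneal cavity of 4 mice. From each tumour the cells positive for the fluorescent protein were sorted as tumour cells and the negative cells as stroma, giving 4 libraries in each of 4 groups (liver tumour cells, peritoneal tumour cells, liver stroma and peritoneal stroma). Athymic nude mice lack a thymus and mature T cells. The labels do not say which Ras population each mouse received or how old the mice were. BMEL WT is a clonal line, and the liver and peritoneal libraries of a mouse come from the same animal.

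Total counts per library ran from 20818989 to 51241336. Levels below are CPM, the counts of a gene relative to the TMM-scaled total of its library, and 3 counts in a library, the limit that a count of 0 allows, correspond to between 0.0572 and 0.143 CPM, for counting error only. The labelled cell types were checked on marker genes. Summed leukocyte markers ranged from 1950 to 3702 CPM in the stroma libraries and from 4.02 to 53.0 CPM in the tumour cell libraries, with the highest of the latter in the peritoneal tumour cells of mouse 1. Summed epithelial markers of the BMEL cells ranged from 7848 to 11131 CPM in the tumour cell libraries and from 686 to 1596 CPM in the stroma libraries, which thus held epithelial transcripts too. Epcam, a general epithelial marker, was close to absent from the tumour cells, at 0.0669 ± 0.0625 CPM (SD, n = 4) in the liver. In such bulk libraries, fewer cells of a type and less RNA per cell cannot be told apart.

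Gas6, Pros1, Mertk, Cd36, Msr1, Stab1 and Scarb1 were higher in stroma than in the tumour cells of either site, whereas the stroma to tumour cell difference of Axl, Tyro3 and Mfge8 stayed below 1 on the log2 scale. In liver tumours all 10 genes differed between stroma and tumour cells at an adjusted p below 0.05, 8 of them higher in stroma, beside 77.8% of all genes tested. In peritoneal tumours 7 of 10 differed, all higher in stroma, beside 76.6% of all genes. Both shares are large for all genes, so the counts say little about these 10, and the direction and size carry the comparison. The median difference of the 10 genes was 3.45 on the log2 scale in liver tumours and 3.76 in peritoneal tumours, against 0.00 and -0.07 over all genes tested.

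**Figure D1:**
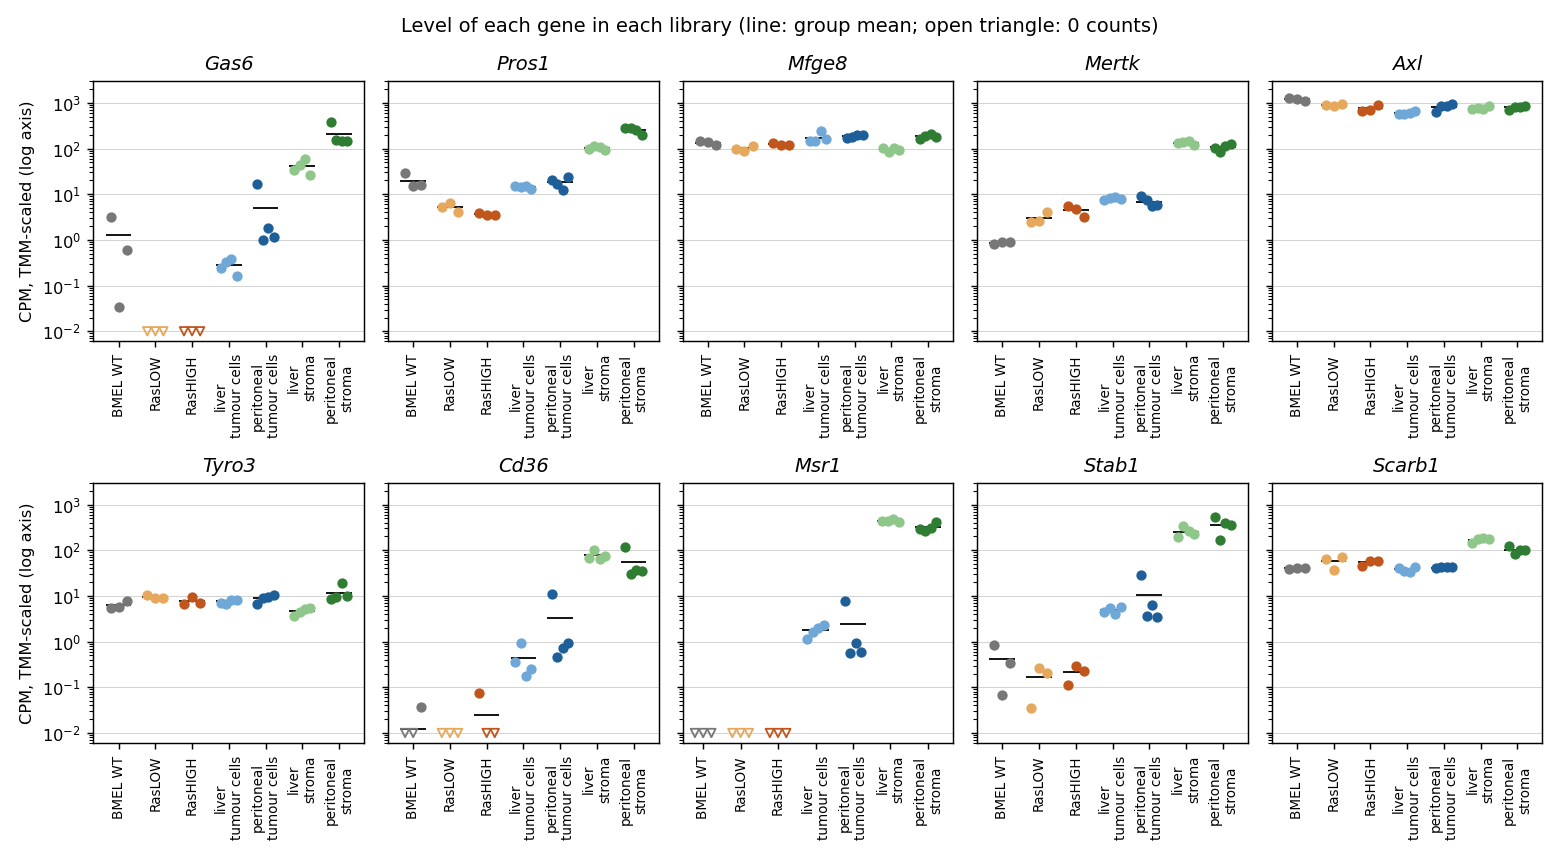
CPM (TMM-scaled, log axis) of the 10 genes in the 7 groups. Each point is a library, the line is the group mean, and open triangles are libraries with 0 counts. Msr1 has 0 counts in all 9 cultures and lies between 259 and 483 CPM in stroma, while Axl lies between 566 and 1299 CPM in all 25 libraries.

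Gas6 (Entrez 14456, chr8:13465374-13494535 on the minus strand of mm9), the ligand that binds all TAM receptors, had its highest levels in stroma. Its levels in liver stroma were 33.6, 44.1, 59.9 and 26.2 CPM in mice 1 to 4, and those in peritoneal stroma were 377, 154, 144 and 149.6 CPM. Liver tumour cells had 0.248, 0.335, 0.390 and 0.159 CPM, from 5 to 13 counts a library. Peritoneal tumour cells had 16.4 CPM in mouse 1 and 0.972, 1.85 and 1.14 CPM in mice 2 to 4. Every stroma library thus lay above every tumour cell library, and mouse 1 was the highest of its group in both peritoneal fractions. All 6 RasLOW and RasHIGH libraries had 0 counts, and the BMEL WT libraries had 91, 1 and 16 counts, so that a single culture holds most of the BMEL WT signal. Stroma exceeded tumour cells by 7.15 ± 0.33 on the log2 scale (SE, 142-fold, adjusted p = 2.05e-09) in the liver and by 5.25 ± 1.03 (38.0-fold, adjusted p = 0.00148) in the peritoneum. Without the peritoneal tumour cells of mouse 1 the latter difference was 7.22 (adjusted p = 2.41e-06).

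Pros1 (Entrez 19128, chr16:62854133-62929172 on the plus strand of mm9) encodes protein S, a plasma anticoagulant that also binds Tyro3 and Mertk. It was higher in stroma as well but was also found in tumour cells. Liver stroma had 99.7, 111, 107 and 92.9 CPM and peritoneal stroma 278, 279, 248 and 201 CPM. Liver tumour cells had 15.1, 14.5, 14.9 and 13.0 CPM and peritoneal tumour cells 20.1, 17.2, 12.5 and 24.3 CPM. Stroma and tumour cells did not overlap at either site. The log2 difference was 2.83 ± 0.09 in the liver (7.11-fold, adjusted p = 1.06e-10) and 3.67 ± 0.22 in the peritoneum (12.7-fold, adjusted p = 2.27e-06).

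Mertk (Entrez 17289, chr2:128524692-128628630 on the plus strand of mm9) is a TAM receptor known from macrophages. It reached 133, 139, 146 and 119 CPM in liver stroma and 104, 82.8, 116 and 126 CPM in peritoneal stroma. The tumour cell libraries lay between 5.39 and 9.05 CPM. The stroma of both sites overlapped in Mertk, and so did the tumour cells of both sites. Stroma was 16.9-fold above tumour cells in the liver (log2 difference 4.08 ± 0.10, adjusted p = 1.09e-11) and 14.6-fold above them in the peritoneum (3.86 ± 0.21, adjusted p = 1.47e-06).

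Axl (Entrez 26362, chr7:26542292-26573724 on the minus strand of mm9), the TAM receptor most specific for Gas6, was found in every library. Its group means ran from 595 ± 40.4 CPM (SD, n = 4) in liver tumour cells to 1204 ± 90.5 CPM (SD, n = 3) in BMEL WT cells. Liver stroma, at 729.5, 786, 743 and 852 CPM, lay above liver tumour cells, at 568, 566, 592 and 653 CPM, by a log2 difference of 0.38 ± 0.09 (adjusted p = 0.0023). Peritoneal stroma (691, 822, 804 and 858 CPM) and peritoneal tumour cells (622, 840.4, 842 and 924 CPM) overlapped, and the difference of -0.12 ± 0.13 was not called (adjusted p = 0.416). Only BMEL WT, at the top, and liver tumour cells, at the bottom, were separate from their neighbours in the order of the 7 means.

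Tyro3 (Entrez 22174, chr2:119623469-119643840 on the plus strand of mm9), a TAM receptor best known from the nervous system, was the least abundant of the TAM receptors in stroma when levels are taken per kilobase of exon, with 0.402% of their sum in the liver and 1.02% in the peritoneum. Liver stroma had 3.62, 4.52, 5.18 and 5.37 CPM, below the 6.95, 6.80, 8.21 and 8.24 CPM of liver tumour cells (log2 difference -0.70 ± 0.17, adjusted p = 0.00222). Peritoneal stroma had 8.56, 9.47, 19.0 and 10.1 CPM, with mouse 3 apart from the others. Peritoneal tumour cells, at 6.62, 8.91, 9.28 and 10.7 CPM, overlapped with it (0.31 ± 0.27, adjusted p = 0.325).

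Mfge8 (Entrez 17304, chr7:86278655-86293946 on the minus strand of mm9), whose protein links phosphatidylserine to integrins that contain the alpha-v chain, was higher in tumour cells than in stroma in the liver and was not called in the peritoneum. Liver tumour cells had 144, 149, 239 and 163 CPM against 101, 84.5, 101 and 91.6 CPM in liver stroma, a log2 difference of -0.89 ± 0.15 for stroma (adjusted p = 0.000175). Peritoneal tumour cells (169, 181, 194 and 197 CPM) and peritoneal stroma (161, 190.4, 206 and 178 CPM) overlapped (-0.11 ± 0.10, adjusted p = 0.310). The cultured cells lay between 89.7 and 143 CPM.

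Of the scavenger receptors, Msr1 (Entrez 20288, chr8:40667054-40728032 on the minus strand of mm9), the class A receptor of macrophages, had the largest difference of the 10 genes at both sites. It had 0 counts in all 9 cultures. Liver stroma had 440.4, 438, 483 and 422 CPM and liver tumour cells 1.17, 1.59, 1.98 and 2.32 CPM (254-fold, log2 difference 7.99 ± 0.19, adjusted p = 8.35e-12). Peritoneal stroma had 293, 259, 309 and 408 CPM. Peritoneal tumour cells had 7.65 CPM in mouse 1 and between 0.567 and 0.953 CPM in the other mice (123-fold, 6.94 ± 0.96, adjusted p = 0.000188), and without that library of mouse 1 the difference was 8.74 (adjusted p = 2.62e-08).

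Cd36 (Entrez 12491, chr5:17287508-17394777 on the minus strand of mm9), a receptor for oxidised lipoprotein and fatty acids, was likewise higher in stroma, as was Stab1 (Entrez 192187, chr14:31952199-31981827 on the minus strand of mm9), stabilin-1, a receptor of sinusoidal endothelium and of macrophages that also binds phosphatidylserine. Cd36 had 67.9, 102, 63.8 and 74.8 CPM in liver stroma and 119.9, 30.2, 37.2 and 35.0 CPM in peritoneal stroma, where mouse 1 stood above the others. Its tumour cell levels were between 0.180 and 0.948 CPM in the liver, and in the peritoneum 10.9 CPM in mouse 1 and at most 0.956 CPM in the other mice. Stab1 had 199, 336, 264 and 221 CPM in liver stroma and 538, 167, 398 and 359 CPM in peritoneal stroma, and again the peritoneal tumour cells of mouse 1, at 28.9 CPM, stood above the 3.67, 6.40 and 3.46 CPM of the other mice. Both genes were called at both sites, with log2 differences of 7.43 for Cd36 and 5.70 for Stab1 in the liver and 4.01 and 5.01 in the peritoneum. The peritoneal values were 6.27 and 6.30 without the tumour cells of mouse 1, and that of Cd36 was 3.31 without the stroma of mouse 1. In the liver Cd36 was 8.11 without the tumour cells of mouse 2.

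Scarb1 (Entrez 20778, chr5:125757457-125821464 on the minus strand of mm9) is the receptor for high-density lipoprotein. Among Cd36, Msr1, Stab1 and Scarb1, Scarb1 had the highest level in cultured and tumour cells per kilobase. It lay between 33.4 and 69.5 CPM in those 17 libraries. Liver stroma had 144, 174, 183 and 179 CPM and peritoneal stroma 124, 83.6, 104 and 101 CPM, above the tumour cells by a log2 difference of 2.14 ± 0.11 (adjusted p = 5.95e-09) and 1.20 ± 0.11 (adjusted p = 2.14e-05).

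The tumour cell level of each gene was also set against the stroma of the same tumour, beside the same percentage for marker genes of stromal cells. In liver tumours Gas6, Cd36 and Msr1 stood at 0.688, 0.520 and 0.397% of stroma and Stab1 at 1.97%, beside medians of 0.253% for leukocyte, 0.475% for macrophage, 0.926% for fibroblast and 1.42% for endothelial markers. Mertk, at 5.91%, Pros1, at 14.0%, and Scarb1, at 22.8%, stood above all of these marker medians, and Axl, Tyro3 and Mfge8 reached 76.6, 164 and 184%. In the peritoneal tumour cells of mouse 1 the macrophage median was 3.57% and the endothelial median 9.81%, against at most 0.568 and 2.70% in the other mice. There Gas6 stood at 4.35%, Cd36 at 9.07%, Msr1 at 2.61% and Stab1 at 5.37%. Stromal markers and these 4 genes were thus high in the same library, and the part of stromal RNA in their tumour cell levels was not tested.

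**Figure D2:**
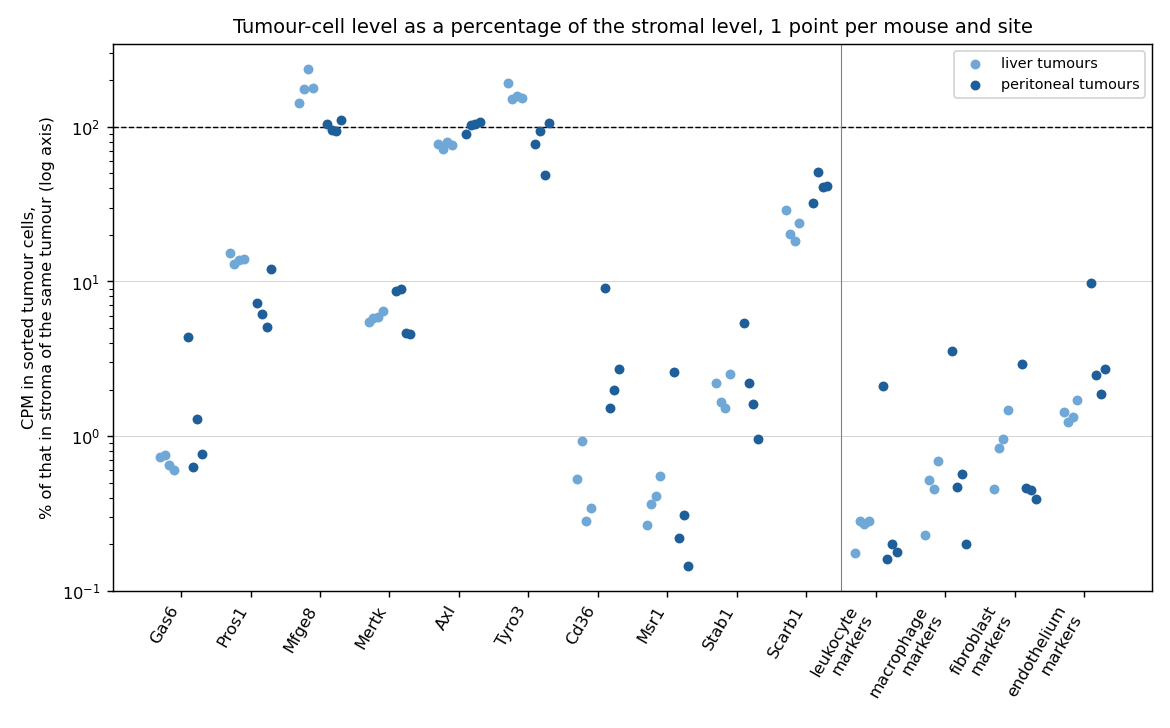
Level in tumour cells as a percentage of the level in stroma of the same tumour (log axis), with 1 point per mouse and site, for the 10 genes and for the medians of 4 marker lists. The dashed line marks 100%. In liver tumours Msr1, Cd36 and Gas6 lie below 1%, as do the leukocyte and macrophage medians. Axl lies between 72.1 and 79.7%, and Tyro3 and Mfge8 lie above 100%.

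The stroma of the liver and peritoneal tumours differed in 6 of 10 genes, beside 33.4% of all genes tested. All bridging ligands, together with Tyro3, were lower in liver stroma, while Scarb1 and Msr1 were higher there, and Mertk, Axl, Cd36 and Stab1 were not called. The median of the 10 log2 differences, liver minus peritoneum, was -0.31, against 0.02 over all genes. Gas6 was 5.17-fold lower in liver stroma (-2.37 ± 0.37, adjusted p = 0.00097), and without the peritoneal stroma library of mouse 1 the difference was -1.93 (adjusted p = 0.000347). Pros1 was 2.52-fold lower (-1.33 ± 0.12, adjusted p = 3.51e-05), Mfge8 2.01-fold lower (-1.01 ± 0.10, adjusted p = 5.87e-05) and Tyro3 2.61-fold lower (-1.38 ± 0.27, adjusted p = 0.00334). The 4 libraries of each site did not overlap for any of these 4 genes. For the MFG-E8 protein the paper reports the other direction, with lower levels in dendritic cells of peritoneal tumours by antibody staining of sections. Protein on sections and RNA of the whole sorted stroma are unlike measures.

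Scarb1 was 1.60-fold higher in liver stroma (0.68 ± 0.12, adjusted p = 0.00261), and its sites did not overlap. Msr1 was 1.37-fold higher (0.45 ± 0.13, adjusted p = 0.0256), but its call was lost when the libraries were scaled to macrophage genes (0.38, adjusted p = 0.212), when all 25 libraries were fitted together (adjusted p = 0.556) and without mouse 1 (0.40, adjusted p = 0.0996). Leaving out a single stroma library ended the call for liver mice 1 and 3 and peritoneal mice 1, 2 and 3, with adjusted p between 0.0504 and 0.0706. Mertk differed by 0.28 ± 0.13 (adjusted p = 0.115), and was called with library totals in place of TMM (0.40, adjusted p = 0.0297), and Axl differed by -0.07 ± 0.10 (adjusted p = 0.623). Cd36, at 0.44 ± 0.41 (adjusted p = 0.456), was called higher in liver stroma once the peritoneal stroma of mouse 1 was left out (1.11, adjusted p = 0.00117). Stab1, at -0.56 ± 0.30 (adjusted p = 0.190), was called lower once the peritoneal stroma of mouse 2 was left out (-0.81, adjusted p = 0.0173).

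Markers of several cell types also differed between the stroma of both sites. All 7 fibroblast markers were lower in liver stroma (median -3.30), with a summed level between 4140 and 8416 CPM in the liver and between 53992 and 81956 CPM in the peritoneum. Of 10 macrophage markers 1 was higher in liver stroma (median -0.01), with sums between 7250 and 9193 CPM in the liver and between 5648 and 8624 CPM in the peritoneum. Kupffer cell markers were higher in liver stroma in 4 of 6 genes, and Clec4f, which defines that cell, had 0 counts in all peritoneal libraries. Markers of sinusoidal endothelium were higher in liver stroma in 5 of 6 genes and those of general endothelium in 1 of 6. Also higher there were 4 of 4 leukocyte markers (median 0.63) and 5 of 6 dendritic cell markers (0.90). So were all 6 hepatocyte markers tested (7.57) and 5 of 7 epithelial markers of the BMEL cells (0.70). Of 5 mesothelial markers 1 was lower, and of 6 large peritoneal macrophage markers 1 was higher and 2 were lower. These 2 lists do not mark those cells alone here. In BMEL WT cultures they summed to means of 1362 CPM (mesothelial) and 121 CPM (large peritoneal macrophage). The higher gene was Selp, at 92.3 CPM in liver tumour cells and 65.6 CPM in liver stroma. The part of any of these cell types in the 6 differences was not tested. After scaling to macrophage genes the log2 differences were -2.43 for Gas6, -1.45 for Pros1, -1.13 for Mfge8, -1.46 for Tyro3 and 0.61 for Scarb1, all still called. Macrophage genes hardly differed between the sites, and this scaling moved the median of all genes only from 0.02 to -0.08. It therefore cannot show the part of the other cell types.

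**Figure D3:**
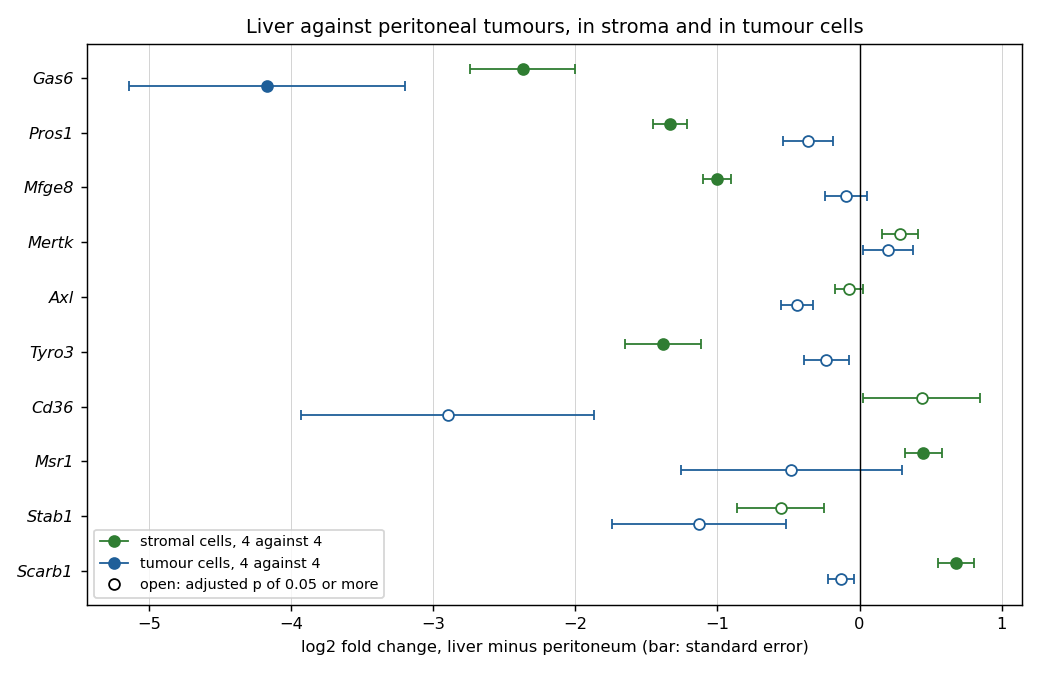
Log2 difference, liver minus peritoneum, with its SE, for the 10 genes in stroma and in tumour cells. Filled symbols have an adjusted p below 0.05. Gas6, Pros1, Mfge8 and Tyro3 are lower and Scarb1 and Msr1 higher in liver stroma, and in tumour cells Gas6 alone is called.

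The promoters of the 4 genes called lower in liver stroma are shown because these genes shared that direction between the sites. That of Stab1, which was not called, is beside them as the only matched promoter without the motif marked here. Each is the 150 bases before the start site, read 5′ to 3′ on the strand of the gene from RefSeq on GRCm38.p6. Capitals mark GGGCGG, the GC box bound by Sp factors, on either strand (CCGCCC where it lies on the other strand), and in Pros1 the last pair overlaps.
Gas6: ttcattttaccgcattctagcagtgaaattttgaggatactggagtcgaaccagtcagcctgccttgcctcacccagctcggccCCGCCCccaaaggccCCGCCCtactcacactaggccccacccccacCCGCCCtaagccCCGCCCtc
Pros1: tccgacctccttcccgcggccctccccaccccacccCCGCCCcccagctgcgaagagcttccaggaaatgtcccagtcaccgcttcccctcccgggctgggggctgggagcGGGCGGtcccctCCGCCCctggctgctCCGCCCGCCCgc
Mfge8: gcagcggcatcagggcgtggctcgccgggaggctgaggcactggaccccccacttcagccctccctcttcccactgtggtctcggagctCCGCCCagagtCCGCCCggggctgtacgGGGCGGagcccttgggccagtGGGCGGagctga
Tyro3: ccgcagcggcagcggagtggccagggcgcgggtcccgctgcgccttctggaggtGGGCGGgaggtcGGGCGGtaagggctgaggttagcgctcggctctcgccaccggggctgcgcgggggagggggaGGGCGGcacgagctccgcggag
Stab1: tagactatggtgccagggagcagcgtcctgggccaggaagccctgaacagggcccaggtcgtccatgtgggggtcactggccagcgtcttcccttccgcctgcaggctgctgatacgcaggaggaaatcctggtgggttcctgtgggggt
They lie at chr8:13494536-13494685 (minus strand), chr16:62854157-62854306 (plus strand), chr7:79149061-79149210 (minus strand), chr2:119799364-119799513 (plus strand) and chr14:31168642-31168791 (minus strand). The GC box was found 4 times in Gas6, 5 times in Pros1, 4 times in Mfge8 and 3 times in Tyro3. Promoters were matched for 8 of the 10 genes, and 7 of these 8 held the GC box, Stab1 being the exception, against 28.6% of all 32851 promoters of this length. The 4 promoters had between 62 and 78% G and C against a median of 54% over all promoters. GAGGAA, the core bound by the myeloid factor PU.1, was in 2 of the 8, those of Axl and Stab1, against 14.5% of all. These matches describe the letters of the window only, and Mertk, Axl and Cd36, which were not called between sites, held the GC box as well.

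Levels of ligands and receptors were then compared per kilobase of exon, since counts depend on gene length. Peritoneal stroma had 79.5 CPM per kb of Gas6 and 61.5 of Pros1, and liver stroma 15.8 and 25.2. The summed ligands amounted to 131, 69.4, 61.2 and 53.1% of the summed TAM receptors in the peritoneal stroma of mice 1 to 4 and to 21.2, 23.4, 27.1 and 16.6% in liver stroma. Both sites were separate in this ratio, of which the numerator is the set of ligands that differed above. Most of the denominator is Axl, whereas Pros1 binds Tyro3 and Mertk, so the ratio does not match each ligand to its own receptors. In tumour cells the ligands were 3.01 ± 0.388% of the receptors in the liver (SD, n = 4), and in the peritoneum 8.88% in mouse 1 and 2.69, 2.22 and 3.42% in mice 2 to 4, so that the sites overlapped and the high value is that of mouse 1. In the cultures it was between 0.608 and 2.19% on average.

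Gas6 made up 54.1 ± 9.91% of both ligands in peritoneal stroma and 37.7 ± 6.82% in liver stroma (SD, n = 4). In liver tumour cells it made up only 2.97 ± 0.935%, the rest being Pros1. Axl was the main receptor in every group, with 82.9 ± 1.97% of the TAM receptor level in liver stroma, 85.5 ± 2.17% in peritoneal stroma and over 97% elsewhere. Mertk accounted for 16.7 ± 1.98% in liver stroma and 13.4 ± 2.05% in peritoneal stroma. The level per kb of Mfge8 was 0.464 ± 0.0214 times that of its integrin partners (Itgav, Itgb3 and Itgb5 summed) in liver stroma and 0.721 ± 0.0367 times in peritoneal stroma, while in tumour cells it exceeded them, at 1.65 ± 0.375 and 1.74 ± 0.158 times.

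**Figure D4:**
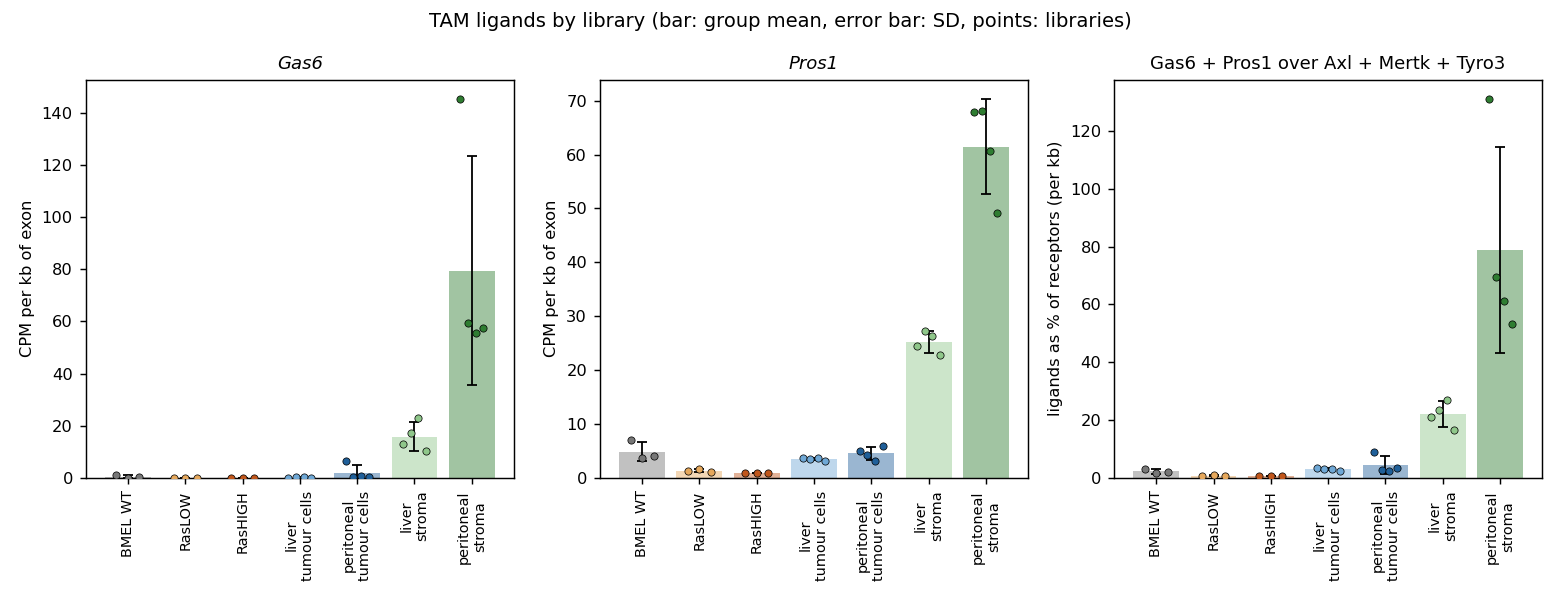
Gas6 and Pros1 in CPM per kb of exon, and their sum as a percentage of the summed Axl, Mertk and Tyro3, in the 7 groups. Bars are means, error bars SDs and points libraries. The percentage is between 53.1 and 131 in peritoneal stroma and between 16.6 and 27.1 in liver stroma.

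Between liver and peritoneal tumour cells 1 of 10 genes was called, beside 3.2% of all genes tested. Gas6 was lower in liver tumour cells by 4.17 ± 0.97 on the log2 scale (18.0-fold, adjusted p = 0.0479), and all 4 peritoneal libraries lay above all liver libraries. The size rests on mouse 1: without its peritoneal tumour cells the difference was -2.22 (adjusted p = 0.0106). With the mouse as a block it was -3.14 (adjusted p = 0.107) and with the sequencing lane as a term -3.84 (adjusted p = 0.0537), so the call was lost in both. It was also lost when any of the 4 liver libraries (adjusted p between 0.0952 and 0.146) or the peritoneal tumour cells of mouse 3 (adjusted p = 0.0537) were left out. The Gas6 counts of liver tumour cells were 5 to 13, and the summed fibroblast markers of the peritoneal tumour cells, between 211 and 323 CPM in mice 2 to 4 and 1454 CPM in mouse 1, also stood above the mean of 54.1 CPM in liver tumour cells. The part of stromal RNA in this difference was not tested.

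Axl was 1.36-fold lower in liver than in peritoneal tumour cells, which narrowly missed the threshold (-0.44 ± 0.11, adjusted p = 0.0614), and it was called without the peritoneal tumour cells of mouse 1 (-0.54, adjusted p = 0.00695) and by DESeq2 (adjusted p = 0.00451). The remaining genes had differences between -2.90 for Cd36 (SE 1.03, adjusted p = 0.150) and 0.20 for Mertk (adjusted p = 0.575). The value of Cd36 was -0.69 (adjusted p = 0.469) without the peritoneal tumour cells of mouse 1 and -3.60 (adjusted p = 0.211) without the liver tumour cells of mouse 2. Msr1, at -0.48 ± 0.78 (adjusted p = 0.770), turned to 1.30 (adjusted p = 0.046) without the peritoneal tumour cells of mouse 1, and Stab1, at -1.13 ± 0.61 (adjusted p = 0.337), turned to 0.11.

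Whether the site difference itself differed between stroma and tumour cells was tested by an interaction term over the 16 sorted libraries. It was called for 4 of 10 genes, beside 14.3% of all genes. The site difference in stroma was more negative than in tumour cells for Tyro3 (-1.06, adjusted p = 0.0414), Pros1 (-0.89, adjusted p = 0.0133) and Mfge8 (-0.83, adjusted p = 0.00908), and more positive for Scarb1 (0.89, adjusted p = 0.00208). Gas6 was lower in the liver in both compartments, and the difference of 1.84 between them was not called (adjusted p = 0.334). With the mouse as a block Axl (0.44, adjusted p = 0.0131) and Cd36 (3.29, adjusted p = 0.046) were called too. Without mouse 1 the calls of Tyro3 (-1.04, adjusted p = 0.0583) and Pros1 (-0.88, adjusted p = 0.0553) were lost, and the call of Tyro3 was also lost in 10 of the 16 cases where a single library was left out, namely any liver library or the peritoneal tumour cells of mouse 2 or 3 (adjusted p between 0.0518 and 0.0831). Without the peritoneal tumour cells of mouse 1 the difference for Gas6 was -0.13 (adjusted p = 0.958) and that for Axl was called (0.46, adjusted p = 0.0262). Cd36, at 3.36 (adjusted p = 0.0793), was 1.10 (adjusted p = 0.431) without the peritoneal tumour cells of mouse 1 and 1.81 (adjusted p = 0.0563) without all libraries of mouse 1, and it was called without the peritoneal tumour cells of mouse 2 (3.73, adjusted p = 0.0449) or the peritoneal stroma of mouse 1 (4.00, adjusted p = 0.0361).

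In the cultured cells 6 of the 10 genes had enough counts to be tested. Gas6, Cd36, Msr1 and Stab1 were at or near 0, with at most 3.14 CPM in any culture. RasLOW and RasHIGH cells were each compared with the same BMEL WT libraries, so the comparisons share their controls. In RasLOW cells 2 of 6 genes were called, beside 5.96% of all genes, and in RasHIGH cells 3 of 6, beside 22.6%.

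Pros1 measured 28.5, 14.9 and 16.3 CPM in the BMEL WT cultures. It fell to 5.18, 6.38 and 4.04 CPM in RasLOW (-1.96 ± 0.33, adjusted p = 0.0196) and to 3.94, 3.59 and 3.54 CPM in RasHIGH (-2.47 ± 0.29, adjusted p = 0.00185). Mertk rose from 0.795, 0.923 and 0.887 CPM to 2.52, 2.64 and 4.04 CPM in RasLOW (1.78 ± 0.35, adjusted p = 0.0312) and to 5.51, 4.83 and 3.23 CPM in RasHIGH (2.34 ± 0.30, adjusted p = 0.00257). BMEL WT overlapped with neither Ras population for Pros1 or Mertk, and the Mertk level stayed far below that of stroma. Axl measured 1299, 1196 and 1118 CPM in the control cultures, 879, 859.8 and 942 CPM in RasLOW (-0.46, adjusted p = 0.103) and 660.3, 686 and 916 CPM in RasHIGH, where it fell by 0.71 ± 0.17 (adjusted p = 0.0234). Mfge8, Tyro3 and Scarb1 were not called in either population, with log2 differences between -0.44 and 0.59.

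These calls depend on few libraries. When single libraries were left out, the RasLOW call of Mertk was lost without any BMEL WT library or RasLOW library 1 or 3 (adjusted p between 0.0551 and 0.129) and that of Pros1 without BMEL WT library 1 or 3 or RasLOW library 1 or 3 (between 0.0536 and 0.0756). The RasHIGH call of Axl was lost without any BMEL WT library or RasHIGH library 2 (between 0.0579 and 0.0823). BMEL WT libraries 1 and 2 were run in lane 3, and library 3 with all Ras cultures in lane 4. A lane term thus leaves library 3 as the only control in the lane of the Ras cultures. Calls lost with it cannot tell a lane effect from the loss of controls. With the lane as a term, RasLOW kept no call (Mertk 1.76, adjusted p = 0.481, and Pros1 -1.67, adjusted p = 0.265). RasHIGH kept Pros1 alone, Mertk being 2.31 (adjusted p = 0.0728) and Axl -0.60 (adjusted p = 0.275). Most calls over all genes were lost too. In RasLOW the lane term left 3 higher and 23 lower of 12307 genes, from 236 and 498. In RasHIGH it left 145 higher and 400 lower of 12331, from 1341 and 1448. Without RasLOW library 2, Scarb1 was called higher in RasLOW (0.69, adjusted p = 0.00925), and without RasHIGH library 1 it was called higher in RasHIGH (0.52, adjusted p = 0.00729). Between RasHIGH and RasLOW none of the 6 genes was called by edgeR's quasi-likelihood test or by DESeq2, 0 of 6 had an unadjusted p below 0.05, and 0.0752% of all genes were called. The largest difference was 0.56 for Mertk (adjusted p = 0.690).

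**Figure D5:**
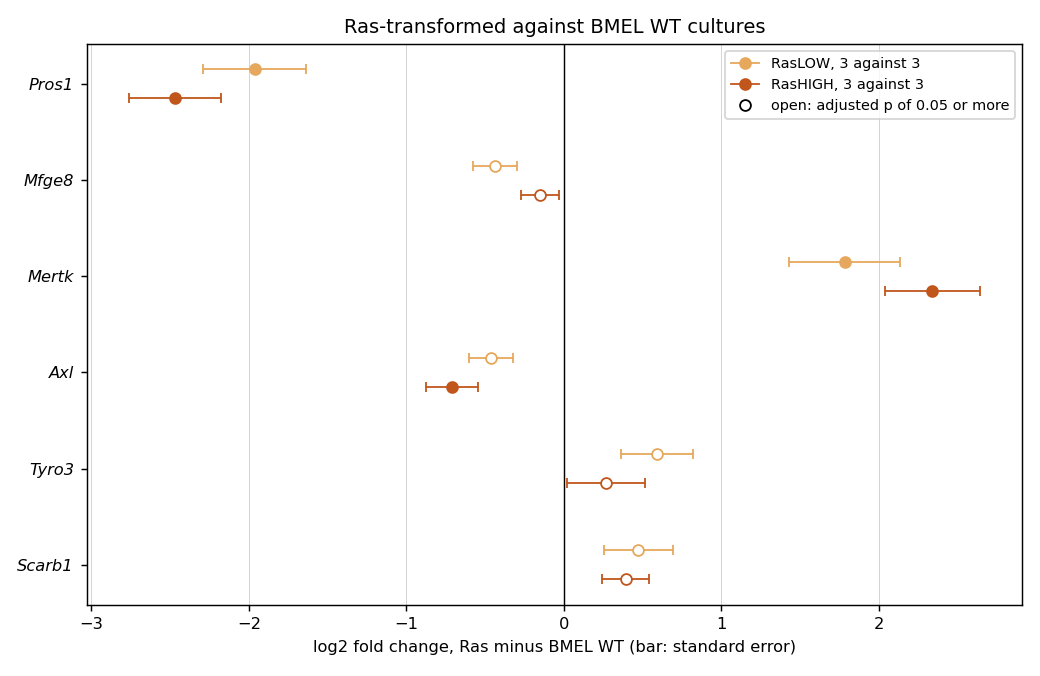
Log2 difference with its SE for RasLOW and RasHIGH minus BMEL WT in the 6 genes tested in culture. Filled symbols have an adjusted p below 0.05, and both comparisons share the BMEL WT libraries. Pros1 is lower and Mertk higher in both populations.

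A list of 65 other genes of dead cell recognition, engulfment and lipid handling gives the setting of these genes. Between liver and peritoneal stroma 17 were higher and 17 lower of 64 tested, with a median of 0.08, beside 33.4% called over all genes (2203 higher and 2723 lower of 14755). Stab2, the stabilin of the sinusoidal endothelium, was at 137 ± 77.2 CPM in liver stroma and 0.960 ± 0.686 CPM in peritoneal stroma (SD, n = 4, log2 difference 7.10, adjusted p = 1.23e-05), whereas Stab1 was not called. Timd4, a phosphatidylserine receptor of resident macrophages, was at 24.1 ± 5.03 and 6.98 ± 3.16 CPM (1.75, adjusted p = 0.00218). Havcr1 (Tim-1), of the same family, was at 1.57 and 0.398 CPM (1.92, adjusted p = 0.0265), and Siglecg at 49.1 and 19.7 CPM (1.28, adjusted p = 0.0173). Among scavenger receptors, Scara5, a ferritin receptor, was at 0.183 ± 0.0784 and 41.2 ± 19.1 CPM (-7.76, adjusted p = 3.28e-06), Scara3 at 10.1 and 234 CPM (-4.57, adjusted p = 7.27e-06) and Cd163, the haemoglobin receptor of macrophages, at 44.4 ± 12.6 and 222 ± 210 CPM (-2.36, adjusted p = 0.00866). Stab2 and Timd4 are also among the sinusoidal endothelium and Kupffer cell markers given above. Gulp1, an adaptor of engulfment receptors, was at 1.43 and 11.6 CPM (-3.06, adjusted p = 2.68e-05). Scavenger receptors were thus found in both directions between the sites.

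In stroma against tumour cells 43 of 63 tested genes of that list were higher and 12 lower in the liver, and 41 higher and 11 lower of 63 in the peritoneum. Over all genes 77.8% were called in the liver (5766 higher and 5610 lower of 14620) and 76.6% in the peritoneum (5412 higher and 5756 lower of 14584). The largest differences upward were those of the leukocyte receptors Cd300lb (9.24), Siglecg (9.04), Cd300lf (8.89) and Sirpa (8.46), the receptor of the Cd47 signal, in the liver, and those of Siglecg (7.85), Cd300lf (7.41), Scara3 (6.87) and Sirpa (6.79) in the peritoneum, with adjusted p of at most 0.000582. Among those lower in stroma were Cx3cl1 (-2.54), a find-me chemokine, Megf10 (-2.37) and Scarf2 (-2.08), a scavenger receptor, in the liver, and Pparg (-2.47), Megf10 (-1.99) and Cd24a (-1.95), a do-not-eat-me signal, in the peritoneum. Between tumour cells of both sites 1 of 58 was higher and 3 were lower in the liver, beside 3.2% called over all genes. Olr1, an oxidised lipoprotein receptor, was at 21.0 ± 3.60 CPM in liver and 8.46 ± 3.63 CPM in peritoneal tumour cells (1.31, adjusted p = 0.0304), and Itgb5, an integrin chain that pairs with Itgav, at 50.5 ± 5.66 and 73.6 ± 9.02 CPM (-0.55, adjusted p = 0.0307). Nr1h3, the oxysterol receptor LXR-alpha, and Lipa, the lysosomal acid lipase, were lower in liver tumour cells, with log2 differences of -0.88 (adjusted p = 0.0484) and -0.72 (adjusted p = 0.027).

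In culture 3 genes of the list were higher and 5 lower of 46 tested in RasLOW, and 10 higher and 8 lower of 48 in RasHIGH, both against the same BMEL WT cells and beside 5.96% and 22.6% called over all genes. Mrc1, the mannose receptor, averaged 27.2 ± 4.05 CPM in the controls (SD, n = 3), 89.3 ± 49.4 CPM in RasLOW (1.67, adjusted p = 0.0379) and 276 ± 50.1 CPM in RasHIGH (3.31, adjusted p = 0.000201). Pparg, a nuclear receptor of lipid metabolism, rose by 1.04 in RasLOW (adjusted p = 0.0495). Megf10, an engulfment receptor of glia, and Havcr2 (Tim-3) rose in RasHIGH by 5.74 (adjusted p = 0.00419) and 5.47 (adjusted p = 0.00111). Siglecg, a sialic acid-binding receptor, fell in RasLOW (-3.92, adjusted p = 0.0196) and in RasHIGH (-6.34, adjusted p = 0.00268), and so did the mitochondrial carrier Ucp2 (-4.90, adjusted p = 0.0107, and -6.15, adjusted p = 0.004). Scara3, a scavenger receptor at 2.50 ± 1.60 CPM in the controls, had 0 counts in all RasHIGH cultures and 0.0335 ± 0.0326 CPM in RasLOW. Abcg1, a cholesterol exporter, was low throughout, at 0.753 ± 0.250 CPM in the controls and 0.0371 ± 0.0356 CPM in RasLOW (adjusted p = 0.0249). Thbs1, thrombospondin-1, a bridging molecule for Cd36, fell from 413 ± 176 CPM in the controls to 9.77 ± 5.77 CPM in RasHIGH (-5.43, adjusted p = 0.000904). Between RasHIGH and RasLOW edgeR's quasi-likelihood test called 0 of 43 genes of the list, with 13 at an unadjusted p below 0.05, beside 1170 of 11962 over all genes. DESeq2 called 5 of 58, among them Havcr2, Megf10, Mrc1 and Thbs1, beside 242 higher and 172 lower of 13664 over all genes.

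Over the 25 libraries the genes most like each of the 10 were found by Pearson's r of log2(CPM + 1) among 13192 genes with a mean of at least 1 CPM. The points share libraries, depth and the contrast of stroma with tumour cells, so r describes this set of samples. Gas6 was closest to Gpx3 (r = 0.9888), Eln (0.9865) and Rhoj (0.9852), and Pros1 to Adamts1 (0.9813), Sorbs3 (0.9791) and Col5a1 (0.9783). Msr1 was closest to Hcls1 (0.9995), Mertk to H2-K1 (0.9918), Cd36 to Siglec1 (0.9936) and Stab1 to Apoe (0.9951). The genes nearest to Axl and Tyro3 had lower r, Scap (0.8824) and Chpf (0.8299).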

How the data were processed

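RNA of 9 cultures and 16 sorted libraries was made into mRNA libraries and sequenced by the authors, who state alignment to mm9 with TopHat2. The submitters' processing notes name mm8, mm10, Bowtie 0.12.2 and FastQC instead, and the counting program, strand setting and annotation are not given in the sources used here. The deposited values are raw counts of reads per gene, and all 25 columns were mapped to samples. Positions and exon lengths came from GENCODE vM1 on NCBIM37 (mm9).

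Genes were filtered by filterByExpr (minimum count 10), scaled by TMM and compared between the libraries of each pair of groups by edgeR's quasi-likelihood F-test (R 4.3.3, edgeR 4.0.16, limma 3.58.1), p-values adjusted by Benjamini and Hochberg's method across every tested gene, and calls at an adjusted p below 0.05. SEs are the log2 fold change divided by the square root of F. The test was checked on simulated data, where it called 195 of 200 genes changed by a log2 of 2 in the stroma and 185 of 200 in the cultures. It also made 7 and 15 false calls. Smaller changes were not simulated, so the check does not cover the smaller differences given here. Other genes of the pathway are named where they were among the 4 largest changes called in a direction, and 1 such gene is not reported here. Libraries of a mouse pair by the labels, and their deviations from the group means correlated between -0.17 and 0.371. The study gives the cultures and tumours as independent samples, and replicate libraries correlated between 0.9838 and 0.9976 with no identical pair. DESeq2 1.42.0 and other scalings, filters and designs were tried as alternatives. The genes and lists were chosen with earlier results of these data known.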

Additional observations from a re-analysis of the deposited data

Results flagged for a closer look

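In groups of 4 libraries, 7 of 40 gene and group pairs had a library whose gap to its nearest neighbour, divided by the range, passed Dixon's 95% limit. Chance alone gives about 1 in 20 for independent tests. These pairs share their libraries, and the share flagged over all genes is not given, so the number is not a result about these genes. The peritoneal tumour cells of mouse 1 stood apart for Gas6 (0.943), Cd36 (0.952), Msr1 (0.946) and Stab1 (0.884). The peritoneal stroma of mouse 1 stood apart for Gas6 (0.955) and Cd36 (0.922), and that of mouse 3 for Tyro3 (0.851). In each of these 7 cases the library was the highest of its group.

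The tested difference between the site difference in stroma and that in tumour cells passed for Tyro3 (-1.06), Pros1 (-0.89), Mfge8 (-0.83) and Scarb1 (0.89), all on the log2 scale.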

How the results depend on the processing

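Of the log2 differences of the 10 genes recomputed under the alternatives, 1072 kept their direction and their side of the threshold, 55 lost a call, 24 gained one and 26 changed sign, and the causes were not tested. The number of genes called between liver and peritoneal tumour cells, 1 as reported, was 2 with library totals alone, 2 with all libraries in a joint fit, 2 at the study's thresholds and 0 to 3 when single libraries were left out. With the mouse as replicate block it was 0. Of all genes, 174 were called higher and 245 lower in liver tumour cells as reported. Library totals alone gave 136 and 366, the joint fit 113 and 268, and the study's thresholds 150 and 310. With the replicate block they were 40 and 62. The study's thresholds for sorted cells, a log2 difference above 1 and p below 0.05, were applied here to the unadjusted p of edgeR's quasi-likelihood test. The study itself used DESeq, so these counts are not those of its own gene list. For peritoneal stroma against tumour cells DESeq2 called 4 in place of 7, giving no adjusted p for Gas6, Cd36 and Msr1. Of all genes it called 6713 higher and 5140 lower of 17492, against 5412 and 5756 of 14584 as reported. For RasLOW, 2 as reported, DESeq2 called 4, and 0 to 3 were called when single cultures were left out. Of all genes DESeq2 called 643 higher and 997 lower of 13640 there, against 236 and 498 of 12307 as reported. For the difference between compartments the study's thresholds gave 2 in place of 4. Of all genes they gave 804 higher and 820 lower, from 1150 and 1041. Chosen after seeing the data, the sequencing lane as a term gave 0 for tumour cells, 0 for RasLOW and 1 for RasHIGH. Tyro3 was then at -0.05 and Mfge8 at 0.01 in RasHIGH. Leaving out mouse 1, also chosen after seeing the data, gave 3 for tumour cells. Of all genes, the lane term left 69 higher and 126 lower between tumour cells. It left 3 and 23 in RasLOW, and 145 and 400 in RasHIGH. Leaving out mouse 1 gave 626 and 416 between tumour cells.

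Sign changes concerned values that were not called as reported, and of those only Msr1 between tumour cells, without the peritoneal tumour cells or all libraries of mouse 1, was called after its change. Axl between stroma was 0.05 with library totals alone, a scaling that also moved the median of all genes from 0.02 to 0.13. In peritoneal stroma against tumour cells Axl was 0.01 by DESeq2, 0.02 with RLE factors and -0.17 to 0.00 with single libraries left out, Mfge8 was 0.02, 0.03 and, without mouse 1, 0.01, and Tyro3 was -0.02 to 0.47 with single libraries left out. Between tumour cells Msr1 was 0.57 with the replicate block (adjusted p = 0.757), 1.46 without mouse 1 and -0.82 to 1.30 with single libraries left out, and Stab1 was 0.16 without mouse 1 and -1.43 to 0.11. Scarb1 between RasHIGH and RasLOW was -0.30 to 0.09. The difference between compartments, without mouse 1 and over single libraries left out, was -0.08 and -0.09 to 0.27 for Mertk, -0.95 and -0.81 to 1.32 for Msr1 and -0.30 and -0.65 to 0.92 for Stab1, and -0.13 to 2.25 for Gas6 with single libraries left out.

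The numbers of the cultured libraries do not mark a shared batch, their deviations correlating between -0.703 and 0.363. A replicate block on these numbers thus pairs the cultures arbitrarily, and its calls do not test a batch. With that block RasLOW had 1 call, with Mertk at 1.75 (adjusted p = 0.104), and Axl in RasHIGH was -0.73 (adjusted p = 0.0525). Of all genes that block left 74 higher and 221 lower in RasLOW, from 236 and 498. The mouse as replicate block changed no call beyond that of Gas6 between tumour cells (-3.14, adjusted p = 0.107) and those of Axl (0.44, adjusted p = 0.0131) and Cd36 (3.29, adjusted p = 0.046) in the difference between compartments. Counts were few for Gas6, Cd36, Msr1 and Stab1 in most cultures, and for Gas6, Cd36 and Msr1 in some tumour cell libraries. Stab1 had at least 94 counts in every tumour cell library, and Mertk had 23 to 27 in the BMEL WT cultures.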
